A study of Mus musculus with 13 samples.

Results

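Solute carriers are membrane proteins that move sugars, amino acids, lactate, ions, metals, vitamins and nucleotides across the plasma membrane, the mitochondrial inner membrane and the membranes of the Golgi and lysosome. Their gene symbols begin with Slc, then a family number. T cells that divide after activation are known to depend on several of them, among them the glucose carrier Glut1 (Slc2a1), the amino acid exchanger of CD98 (Slc3a2 with Slc7a5), the glutamine carrier ASCT2 (Slc1a5) and the lactate carriers MCT1 and MCT4 (Slc16a1 and Slc16a3). The members described here were the rows of the deposited expression table whose symbol starts with Slc followed by a digit and which reached 50 normalized reads in 2 or more of the 13 libraries. This rule kept 190 of 215 Slc rows, out of 12963 genes in the table. A normalized read, as inferred from the values, is a read count divided by a size factor for the library, and a single read was worth between 0.661 and 1.37 of these units.

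The T cells were sorted by flow cytometry from B16-F10 melanomas, a mouse tumor line, in Foxp3-EGFP-DTR mice. This allele puts a fluorescent marker and the receptor for diphtheria toxin (DTx) under the control of Foxp3, so DTx ablates regulatory T (Treg) cells and saline (PBS) does not. All animals carried this allele and a tumor, and no group came from mice without the allele, so DTx was compared with PBS and not with DTx in mice that lack the receptor. The labels give no age. The groups were Treg cells (Treg PBS, n = 3), conventional CD4 T (CD4 Tconv) cells (CD4 PBS, n = 2) and CD8 T cells (CD8 PBS, n = 2) from PBS-treated mice, and CD4 Tconv (CD4 DTx, n = 3) and CD8 T cells (CD8 DTx, n = 3) from DTx-treated mice. Foxp3 measured 1178 to 1896 normalized reads across Treg PBS and no more than 12.1 elsewhere, Cd4 was at 10595 or more in the Treg and CD4 libraries, and Cd8a at 23475 or more in the CD8 libraries. The libraries held between 15947556 and 34140486 reads. Replicate 3 of every group was male by Y-linked reads and the absence of Xist, and the others were female.

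Of the 190 members, 140 reached 50 normalized reads in all 13 libraries and 50 did not. Only 2 libraries reached that level for 12 members, and 4 members (Slc7a7, Slc9b2, Slc29a2 and Slc46a1) reached it in libraries of 1 group alone. Slc9b2 did so in Treg PBS, so the rule itself set the direction of its calls against that group. In part this held for any called member without a library at that level in a group compared, where the rule favoured the direction of the call. Among these, Slc22a17 reached the level in PBS-treated groups alone and Slc7a4 in Treg PBS and CD4 PBS alone. Slc6a19 and Slc27a6 reached it in CD8 groups alone. At the edge of the rule, Slc22a8 and Slc1a1 were kept with a second-highest library at 50 and 53.8 normalized reads, and Slc22a21 and Slc6a18 were left out at 45.3 and 42.4. The iron exporter Slc40a1 and the cystine carrier Slc7a11 were also below the level. Members were sorted into 11 classes by the known substrates of the gene or of its family. By its family, Slc43a3, known to move purine nucleobases, counts among amino acids and peptides. The largest class was the mitochondrial carriers with 37 members, then came amino acids and peptides with 29, metals and heme with 25, inorganic ions and pH with 22, and nucleotide sugars and related Golgi carriers with 21. Organic ions, amines, osmolytes and vesicular carriers had 15 members, vitamins, choline and lipids 14, and sugars and sugar phosphates 12. Nucleosides and monocarboxylates had 5 each. A further 5 rows are named after a carrier but do not encode one. Together the members took between 0.926% and 1.16% of the reads of a library.

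Levels of different genes were compared per kilobase of exon, and the highest are named here after their values were seen. The ADP/ATP carrier of the mitochondrion Slc25a5 had the highest level, with a group mean between 11910 normalized reads per kilobase in CD4 PBS and 19554 in CD8 DTx. The mitochondrial phosphate carrier Slc25a3 followed, at 4535 in CD4 PBS to 6417 in Treg PBS. The choline transporter-like gene Slc44a2 ranked next, between 2608 per kilobase in Treg PBS and 6285 in CD4 PBS. Slc1a5 was between 2767 and 3404 normalized reads per kilobase, and the CD98 heavy chain Slc3a2 between 1426 and 2737. The glucose carrier Slc2a3 had the largest ratio between group means among the 15 highest members, from 487 per kilobase in CD4 PBS to 2656 in CD8 DTx. Slc25a5 has near-identical copies in the genome, so its count is uncertain.

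Treg cells were compared with CD4 Tconv cells of PBS-treated tumors to ask which carriers separate them. The glucose carriers Slc2a1 and Slc2a3, the lactate exporter Slc16a3, the zinc importer Slc39a4, the riboflavin carrier Slc52a3 and the lysosomal peptide carrier Slc15a3 were higher in Treg PBS. The potassium-chloride cotransporter Slc12a7, the choline transporter-like gene Slc44a2 and the monocarboxylate carrier family member Slc16a5 were lower. Of the 190 members 46 passed (limma, adjusted p under 0.05 over all 12667 genes tested), 34 higher and 12 lower in Treg PBS. This is 24.2% of the members, beside 20.4% of all genes tested. By direction it was 17.9% higher and 6.32% lower, beside 13.5% and 6.91% of all genes. Past a 4-fold difference there were 16 higher and 5 lower, 11.1% of the members beside 10.2% of all genes. The median log2 fold change (log2FC) was 0.01 over the members and 0.01 over all genes tested. Without CD4 PBS replicate 2 the number of members that passed was 26, and without CD4 PBS replicate 3 it was 22. In sorted bulk RNA, fewer cells that express a gene and less of its RNA per cell cannot be told apart.

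**Figure D1:**
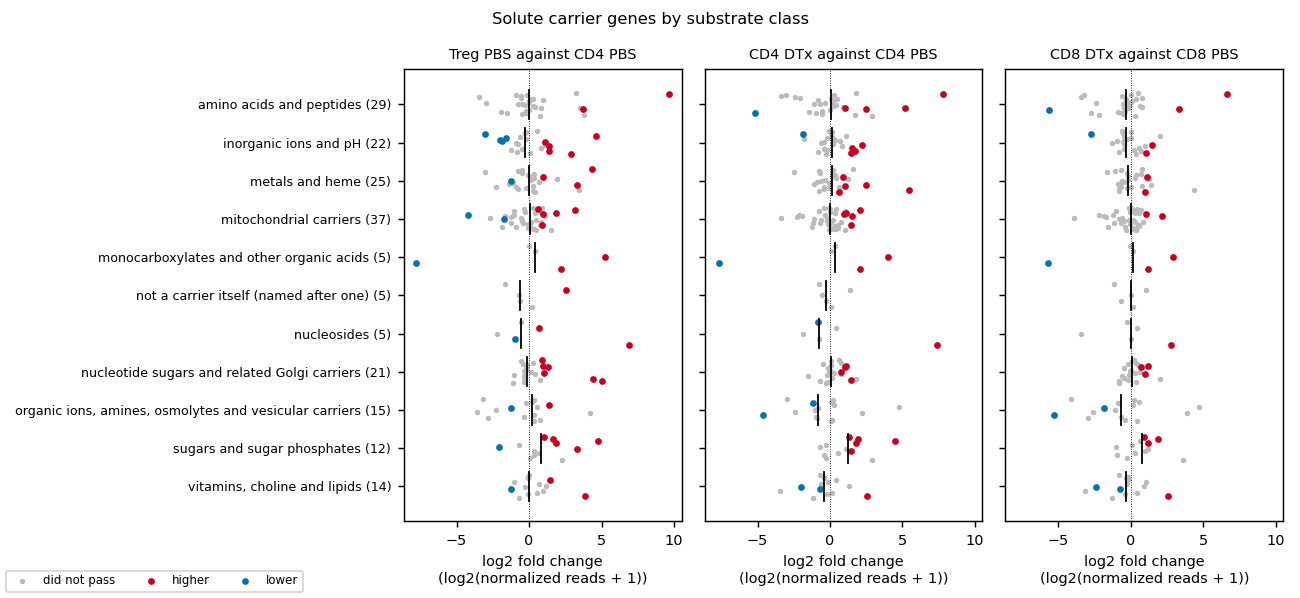
Log2 fold change of each of the 190 members, on the log2(normalized reads + 1) scale, by substrate class (number of members in brackets) in the comparisons of Treg PBS with CD4 PBS, CD4 DTx with CD4 PBS and CD8 DTx with CD8 PBS. Each point is a gene, red where it was higher and blue where it was lower at an adjusted p under 0.05, grey otherwise, and the black bar is the class median. The sugar class has the medians farthest above 0, at 0.85, 1.22 and 0.79.

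Among sugar carriers, 6 of 12 members passed between Treg PBS and CD4 PBS, 5 higher and 1 lower. The class median log2FC was 0.85. Slc2a3, the high-affinity glucose carrier Glut3, had 5529, 4868 and 8392 normalized reads across Treg PBS, and 1852 and 2005 across CD4 PBS. All Treg libraries lay above the CD4 PBS libraries, with a log2FC of 1.66 (SE 0.24, limma adjusted p = 5.30e-04). Slc2a1, known as Glut1, was at 2859, 3602 and 5292 in Treg PBS and at 2069 and 1655 in CD4 PBS, a log2FC of 1.03 (SE 0.27, limma adjusted p = 0.0192). The groups did not overlap. Slc2a6, an intracellular hexose carrier, was at 119, 95.3 and 109 normalized reads in Treg PBS against 15 and 0 in CD4 PBS (log2FC 4.76, limma adjusted p = 0.00988). Carriers of glucose 6-phosphate in the endoplasmic reticulum moved in opposite directions. Slc37a2 was at 660, 593 and 1303 normalized reads in Treg PBS and at 53.3 and 117 in CD4 PBS (log2FC 3.32, limma adjusted p = 0.00154). Slc37a1 was the lower one, at 350, 421 and 821 in Treg PBS against 2066 and 2221 in CD4 PBS (log2FC -2.11, limma adjusted p = 0.00273).

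Of the 5 monocarboxylate carriers, 2 were higher and 1 was lower in Treg PBS. Slc16a3, the lactate exporter MCT4, was at 2172, 2145 and 2673 normalized reads in Treg PBS and at 91.6 and 40.3 in CD4 PBS. Every Treg library was far above both CD4 PBS libraries (log2FC 5.23, SE 0.53, limma adjusted p = 5.44e-05). Slc16a1, known as MCT1, did not pass, with 1020, 2114 and 1772 in Treg PBS and 1599 and 1555 in CD4 PBS. Its groups overlapped. Slc16a5, a less studied relative known as MCT6, was at 0, 16.2 and 94.2 normalized reads in Treg PBS and at 2329 and 2901 in CD4 PBS. It was the member with the lowest fold change in this comparison (log2FC -7.78, SE 1.60, limma adjusted p = 0.00495).

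Of the 29 members in the amino acid and peptide class, 2 passed between Treg PBS and CD4 PBS, or 6.90%, and the class median was -0.04. Slc15a3, a carrier of histidine and small peptides in the lysosomal membrane, was at 1452, 789 and 1608 normalized reads in Treg PBS and at 0 and 1.32 in CD4 PBS. CD4 PBS held 2 reads of it in all, and the ratio was 1446-fold (95% exact interval for counting error 400 to 11941), with a limma adjusted p = 7.86e-06. Slc43a3, of a family of large neutral amino acid carriers and itself known to move purine nucleobases, was at 1771, 1717 and 979 in Treg PBS and at 157 and 73.3 in CD4 PBS (log2FC 3.73, limma adjusted p = 3.80e-04). The amino acid carriers best known from activated T cells did not pass. Slc7a5, the light chain LAT1 of CD98, was at 310, 1664 and 808 normalized reads in Treg PBS against 2457 and 1824 in CD4 PBS (limma, adjusted p = 0.120). Slc3a2 was at 5329, 5616 and 5864 against 3475 and 5146 (log2FC 0.40, limma adjusted p = 0.328). Slc1a5 had a log2FC of 0.11, the glutamine carriers Slc38a1 and Slc38a2 had -0.04 and -0.76, and the arginine carrier Slc7a1 had -0.19, all short of the threshold.

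Metal carriers numbered 25, with 3 higher and 1 lower in Treg PBS. The zinc importer Slc39a4 (ZIP4) was at 1776, 1898 and 2867 normalized reads in Treg PBS and at 284 and 161 in CD4 PBS (log2FC 3.31, SE 0.42, limma adjusted p = 2.37e-04). The copper importer Slc31a1 was at 1082, 1108 and 1094 against 607 and 542 (log2FC 0.93, limma adjusted p = 0.0154), a difference with little spread within either group. Slc11a1, the divalent metal carrier of phagosomes known from macrophages, was at 400, 334 and 346 in Treg PBS and at 32.8 and 8.59 in CD4 PBS (log2FC 4.32, SE 1.32, limma adjusted p = 0.0369). The summed level of 8 of 9 listed myeloid markers found in the table, Slc11a1 included, ranged from 1554 to 4125 normalized reads in Treg PBS and was 1241 and 1389 in CD4 PBS. Besides Slc11a1, Csf1r was the marker whose groups did not overlap, at 200, 37.9 and 22.4 in Treg PBS and at 0 and 7.27 in CD4 PBS. The other 6 overlapped, such as Itgam at 177, 39 and 56.5 against 131 and 95.8 and Fcgr3 at 201, 29.2 and 63.6 against 101 and 102. The part of such cells in the Slc11a1 difference was not tested.

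The ion and pH class had the most passing members in this comparison, 5 higher and 4 lower of 22. Among the higher ones is Slc9b2, which met the level rule through Treg PBS alone. Slc12a7, the potassium-chloride cotransporter KCC4, was at 541, 853 and 1321 normalized reads in Treg PBS and at 7293 and 6441 in CD4 PBS (log2FC -3.01, SE 0.50, limma adjusted p = 0.00118). The phosphate importer Slc20a1 was at 1269, 951 and 1076 against 3497 and 2953 (log2FC -1.56, limma adjusted p = 0.00252), and the sulfate and chloride carrier Slc26a11 was at 299, 105 and 417 against 917 and 834 (log2FC -1.89, limma adjusted p = 0.0241). Another member of that family, Slc26a10, fell on the same side (log2FC -2.03). Slc12a8, a relative of the cation-chloride cotransporters, was at 289, 193 and 224 in Treg PBS and at 17.8 and 3.96 in CD4 PBS (log2FC 4.59, limma adjusted p = 0.00848).

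Among 37 mitochondrial carriers 5 were higher and 2 lower in Treg PBS, with a median of 0.05. Slc25a13, the aspartate-glutamate carrier citrin, was at 384, 600 and 454 normalized reads in Treg PBS and at 50.6 and 52.2 in CD4 PBS (log2FC 3.17, SE 0.42, limma adjusted p = 3.25e-04). Its close relative Slc25a12 did not pass, with 2882, 3160 and 2809 against 3621 and 3820. Slc25a23, a calcium-dependent ATP-Mg/phosphate carrier, was lower at 5.08, 66.1 and 73.0 against 589 and 590 (log2FC -4.25, limma adjusted p = 0.00506). Slc25a29, a carrier of basic amino acids, was lower as well (log2FC -1.74, limma adjusted p = 0.0262).

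Of the remaining classes, 6 of 21 Golgi carriers were higher in Treg PBS and none was lower. They included Slc35a1, which supplies CMP-sialic acid to the Golgi (log2FC 0.89, limma adjusted p = 0.0384), and Slc35f5 and Slc35e4, whose substrates are not settled. Slc35f5 was at 403, 211 and 263 normalized reads in Treg PBS and at 2.73 and 19.8 in CD4 PBS, and Slc35e4 at 169, 158 and 303 against 15 and 4.62. The riboflavin carrier Slc52a3 was at 2206, 1254 and 1746 in Treg PBS against 127 and 100 in CD4 PBS (log2FC 3.89, SE 0.46, limma adjusted p = 1.56e-04). Slc44a2 was the most abundant member that was lower, at 8438, 8722 and 11113 in Treg PBS and at 21923 and 23494 in CD4 PBS (log2FC -1.28, limma adjusted p = 5.78e-04). Nucleoside carriers differed in direction. Slc29a4, a carrier of adenosine and monoamines, was at 116, 95.3 and 144 in Treg PBS and at 0 in both CD4 PBS libraries. Set against 3 reads per library, taken as the detection floor, the Treg PBS mean was at least 28.9-fold higher (adjusted p by limma = 1.01e-04). Such at-least values, here and below, set a group mean against the highest floor of the other group. Single libraries can lie under them. Slc29a1, the equilibrative carrier ENT1, was higher (log2FC 0.71, limma adjusted p = 0.0403) and its lysosomal relative Slc29a3 was lower (log2FC -0.97, limma adjusted p = 0.0437). The vesicular nucleotide carrier Slc17a9 was lower at 478, 815 and 977 against 1830 and 1604 (log2FC -1.24, limma adjusted p = 0.0108), as was the zinc transporter Slc39a11 (log2FC -1.22). Slc36a3os, a transcript opposite the gene Slc36a3, also passed, but the strand setting of the counting is not stated, so reads of such a pair cannot be told apart.

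**Figure D2:**
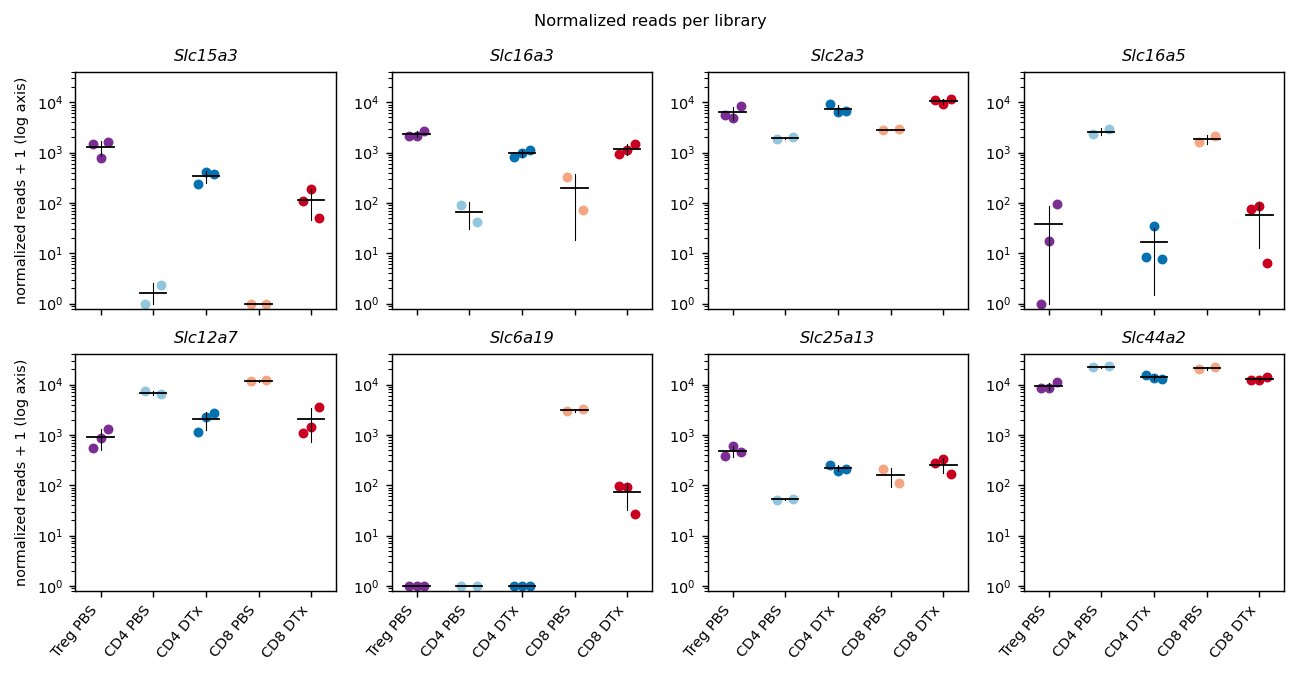
Normalized reads plus 1 on a log axis in each library for 8 members, by group. Points are libraries, the horizontal line is the group mean and the vertical line spans 1 standard deviation either side of it, stopped at 1 on the axis. Slc15a3 and Slc16a3 are lowest in the PBS Tconv groups, Slc16a5 and Slc12a7 are highest there, and Slc6a19 is at 0 in every Treg and CD4 library.

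CD4 DTx was compared with CD4 PBS, and CD8 DTx with CD8 PBS, to ask how the carriers of the remaining T cells changed once Treg cells were ablated. In CD4 cells 39 of 190 members passed, 31 higher and 8 lower after DTx (limma, adjusted p under 0.05). That is 20.5% of the members, where 12.7% of all genes tested passed in either direction. Higher members made up 16.3% of all members, against 8.64% among all genes and 9.41% among the 11557 genes that met the same level rule, a difference that was not tested. Lower members were 4.21%, against 4.08% of all genes. Of these calls 12 higher and 4 lower were past 4-fold, 8.42% of the members against 6.85% of all genes. The count was 23 without CD4 PBS replicate 2 and 12 without CD4 PBS replicate 3. In CD8 cells 25 members passed, 18 higher and 7 lower, or 13.2%, where 10.9% of all genes tested passed. The higher ones were 9.47% of the members, against 7.40% of all genes, and the lower ones 3.68%, against 3.47%. Past 4-fold were 6 higher and 5 lower, 5.79% against 5.46% of all genes. The CD8 count was 4 without CD8 PBS replicate 3 and 16 without CD8 DTx replicate 2. Scaling all libraries to the same total lowered the median log2FC of all genes to -0.18 in CD4 and -0.23 in CD8 cells, and the CD8 split then became 12 higher and 11 lower.

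The CD4 and the CD8 comparison share no library, but their libraries were not independent. CD4 and CD8 libraries of the same number deviated together from their group means (r = 0.36, 0.21 and 0.59 after DTx, 0.19 with PBS). The PBS value rests on 2 libraries per group, whose deviations mirror each other. They also shared sex. The part of this in the shared calls was not tested. Of the members that were higher after DTx, 17 passed in both, which is 54.8% of the 31 in CD4 cells and 94.4% of the 18 in CD8 cells. Of the lower members, 5 passed in both, 62.5% of 8 and 71.4% of 7. These include Slc22a17, which met the level rule through PBS-treated groups alone. Over all genes tested the shared higher genes were 58.7% of those in CD4 and 68.6% of those in CD8 cells, and the shared lower genes 47.8% and 56.1%. Whether the members differ from all genes in this was not tested. No member passed in opposite directions, 17 passed in CD4 cells alone and 3 in CD8 cells alone. The difference between the CD4 and the CD8 effect was tested for each member, and none passed (limma). Over all genes 0.0474% passed. At an unadjusted p under 0.05 there were 11 members, or 5.79%, beside 4.05% of all genes. edgeR found 0 and DESeq2 found 1, Slc29a4. The member with the smallest p was Slc6a19 (difference of log2FC values 5.62, SE 1.25, limma adjusted p = 0.251), then came Slc29a4 (4.63, adjusted p = 0.265), Slc35f2 (1.65), Slc43a2 (1.52) and Slc25a4 (0.97).

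**Figure D3:**
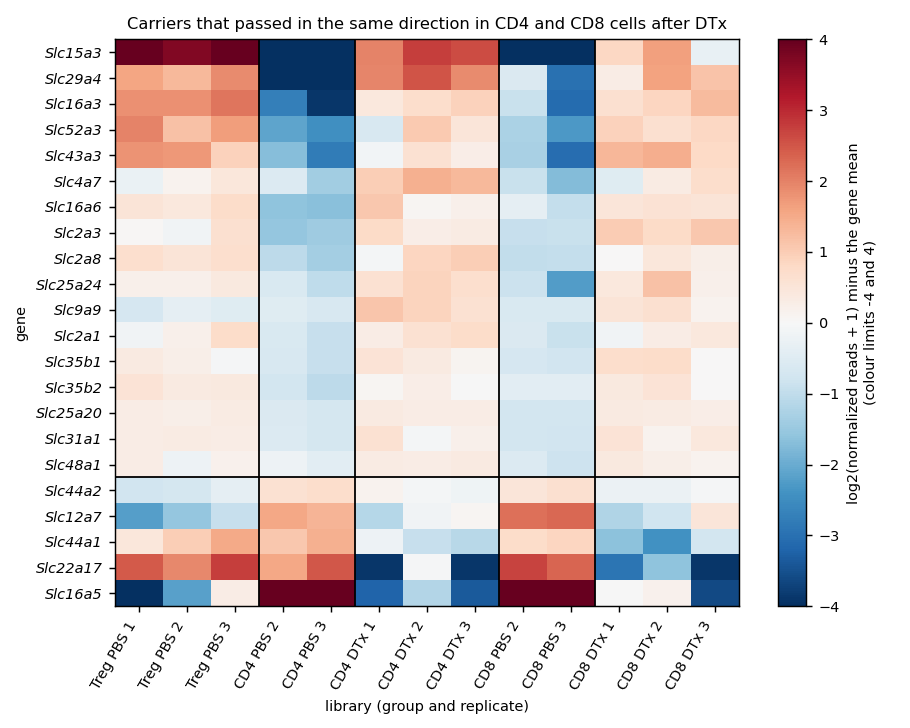
Level of the 22 members that passed in the same direction in CD4 and in CD8 cells after DTx, as log2(normalized reads + 1) minus the mean of the gene over the 13 libraries, with colours limited at -4 and 4. Rows above the line are the 17 higher members and rows below it the 5 lower ones, and columns are libraries grouped by cell type and treatment. The CD4 PBS and CD8 PBS columns are blue above the line and red below it.

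The hexose carriers Slc2a1, Slc2a3 and Slc2a8 rose in both cell types, Slc2a6 passed in CD4 cells alone, and Slc2a9 passed in neither. Slc2a3 was at 9220, 6431 and 6698 normalized reads in CD4 DTx against 1852 and 2005 in CD4 PBS. In CD8 DTx it was at 10971, 9191 and 11378 against 2836 and 2910 in CD8 PBS. The CD4 log2FC was 1.93 (SE 0.24, limma adjusted p = 3.32e-04). The CD8 log2FC was 1.87 (SE 0.24, limma adjusted p = 9.86e-04). Every DTx library lay above every PBS library of its cell type. Slc2a1 was at 3842, 4865 and 5290 in CD4 DTx, and at 2857, 3923 and 4248 in CD8 DTx against 2119 and 1689 in CD8 PBS. The CD4 log2FC was 1.32 (SE 0.27, limma adjusted p = 0.00741), and the CD8 value 0.94 (SE 0.27, adjusted p = 0.0476). Slc2a8, an intracellular hexose carrier, rose as well (log2FC 1.79 in CD4, limma adjusted p = 0.00279, and 1.20 in CD8, limma adjusted p = 0.0310). Slc2a6 passed in CD4 cells, at 78.6, 130 and 71.1 normalized reads against 15 and 0 (log2FC 4.50, limma adjusted p = 0.0184). In CD8 DTx it was at 18.5, 161 and 47.1, overlapping the 48.6 and 22.7 of CD8 PBS.

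Of the sugar class, 5 of 12 members were higher after DTx in CD4 cells and 3 in CD8 cells, and none was lower in either. The class median was 1.22 in CD4 and 0.79 in CD8 cells, beside medians of -0.04 and -0.03 over all genes tested. Slc37a3, the other sugar carrier that passed in CD4 cells, was at 1722, 3271 and 2759 against 968 and 863 (log2FC 1.45, limma adjusted p = 0.00552). It is named after its values were seen.

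Of the 5 monocarboxylate carrier family members, Slc16a3 and Slc16a6 rose and Slc16a5 fell in each cell type. Slc16a3, the lactate exporter, was at 816, 989 and 1144 normalized reads in CD4 DTx against 91.6 and 40.3 in CD4 PBS (log2FC 3.98, SE 0.53, limma adjusted p = 5.18e-04). In CD8 DTx it was at 946, 1108 and 1477 against 329 and 70.6 in CD8 PBS (log2FC 2.91, SE 0.53, limma adjusted p = 0.00520). Slc16a6, a further family member, rose from 368 and 352 to 2376, 1194 and 1289 in CD4 cells (log2FC 2.10, limma adjusted p = 6.62e-04), and from 876 and 583 to 1557, 1671 and 1607 in CD8 cells (log2FC 1.17, limma adjusted p = 0.0241). Slc16a5 fell from 2329 and 2901 to 7.48, 33.7 and 6.58 in CD4 cells (log2FC -7.64, SE 1.60, limma adjusted p = 0.00759). In CD8 cells it fell from 1624 and 2157 to 75.8, 86.7 and 5.38 (log2FC -5.74, SE 1.60, limma adjusted p = 0.0386). Slc16a1 did not pass in either, with log2FC values of 0.37 and -0.04.

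The promoters of the 2 members of this group best known for glucose uptake and lactate export are shown because both hold the letters ACGTG, the core of the element bound by hypoxia-inducible factors. The sequences are the 250 bases before the RefSeq transcript start, 5′ to 3′ on the gene's strand, in the build GRCm38.p6, which is not the build of the expression files. Capitals mark the letters ACGTG. The Slc2a1 window is chr4:119108495-119108744 on the plus strand, with 1 match, and the Slc16a3 window is chr11:120948817-120949066 on the plus strand, with 2 matches.
Slc2a1: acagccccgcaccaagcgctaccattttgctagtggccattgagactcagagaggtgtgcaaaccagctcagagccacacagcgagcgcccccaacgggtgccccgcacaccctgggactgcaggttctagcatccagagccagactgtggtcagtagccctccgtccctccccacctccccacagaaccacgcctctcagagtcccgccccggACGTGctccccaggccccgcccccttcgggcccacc
Slc16a3: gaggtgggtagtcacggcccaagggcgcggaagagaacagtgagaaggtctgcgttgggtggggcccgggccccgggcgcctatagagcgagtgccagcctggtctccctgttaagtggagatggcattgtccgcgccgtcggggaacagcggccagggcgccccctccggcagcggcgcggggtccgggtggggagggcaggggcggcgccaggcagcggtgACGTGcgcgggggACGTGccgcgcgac

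A promoter was at hand for 146 of the 190 members and for 11 of the 17 that were higher in both cell types. On either strand the letters ACGTG stood in 18.5% of 27025 mouse promoters of this length, in 39 of the 146 members (26.7%) and in 2 of those 11 (18.2%), Slc2a1 and Slc16a3. Among the 5 members that were lower in both cell types a promoter was at hand for 4, and 2 of them, Slc12a7 and Slc22a17, held the letters (50%). The palindrome CACGTG, known as an E-box and counted also among the matches of ACGTG, stood in 6.86% of all promoters, in 23 of the 146 members and in 0 of the 11 and 1 of the 4. A match of letters is not a bound site. Hif1a, the hypoxia-inducible factor subunit itself, was at 27639, 22092 and 29955 normalized reads in CD4 DTx against 7235 and 6625 in CD4 PBS (log2FC 1.93, limma adjusted p = 2.85e-04), and its log2FC in CD8 cells was 1.57 (limma, adjusted p = 0.00182). The part of Hif1a in the carrier differences was not tested.

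Amino acid and peptide carriers gave 4 higher and 1 lower of 29 in CD4 cells, and 2 higher and 1 lower in CD8 cells. Slc15a3 had the highest log2FC of all members in both, 7.78 in CD4 and 6.65 in CD8 cells. It was at 242, 414 and 371 normalized reads in CD4 DTx and at 107, 190 and 48.5 in CD8 DTx, with 0 and 1.32 in CD4 PBS and 0 in both CD8 PBS libraries. In CD4 cells the ratio was 378-fold (95% exact interval for counting error 104 to 3125), with a limma adjusted p = 6.98e-05. In CD8 cells the rise was at least 28.8-fold, with a limma adjusted p = 4.06e-04. Slc43a3 was at 470, 781 and 620 in CD4 DTx (log2FC 2.50, limma adjusted p = 0.00693), and at 1281, 1411 and 882 in CD8 DTx against 209 and 61.3 in CD8 PBS (log2FC 3.35, limma adjusted p = 0.00203). The leucine carriers Slc43a1 and Slc43a2 of the same family passed in CD4 cells. Slc43a1 was at 81.4, 62.4 and 7.90 in CD4 DTx and at 0 in both CD4 PBS libraries (limma, adjusted p = 0.0424), and in CD8 cells it overlapped, with 111, 51.0 and 52.5 against 134 and 40.0. Slc43a2, named after its values were seen, rose from 1051 and 888 to 1680, 2379 and 2049 (log2FC 1.06, limma adjusted p = 0.0434). Slc7a4, of the cationic amino acid carrier family, fell from 57.4 and 20.5 in CD4 PBS to 0 throughout CD4 DTx, at least 9.86-fold lower with a limma adjusted p = 0.0244.

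Slc6a19, a sodium-coupled carrier of neutral amino acids known from gut and kidney, stood apart by cell type. It was at 2962 and 3199 normalized reads in CD8 PBS, at 96.1, 93.4 and 25.6 in CD8 DTx, and at 0 in all 8 Treg and CD4 libraries. The fall in CD8 cells after DTx had a log2FC of -5.62 (SE 0.88, limma adjusted p = 0.00239). In Slc7a5, Slc3a2, Slc1a5 and Slc38a2 no change passed. Slc3a2 was at 10402, 5591 and 8821 in CD4 DTx and at 9889, 7549 and 6667 in CD8 DTx, above all PBS libraries of its cell type (log2FC 0.92 in CD4, limma adjusted p = 0.0522, and 0.77 in CD8, adjusted p = 0.107). With DESeq2 on recovered reads the CD4 value of Slc3a2 passed (adjusted p = 0.0132). Slc7a5 ranged from 741 to 1559 in CD4 DTx and from 695 to 2689 in CD8 DTx, where it overlapped CD8 PBS. Slc38a2 was at 3335, 2883 and 3134 in CD4 DTx against 3977 and 11708 in CD4 PBS, a log2FC of -1.13 (SE 0.46, limma adjusted p = 0.135).

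Among ion carriers, 4 of 22 were higher and 1 lower in CD4 cells, and 2 were higher and 1 lower in CD8 cells. Slc4a7, a sodium bicarbonate cotransporter that loads base into the cell, was at 2951, 4059 and 3665 normalized reads in CD4 DTx against 1033 and 572 (log2FC 2.20, SE 0.39, limma adjusted p = 0.00280). In CD8 DTx it was at 1071, 1888 and 2420 against 812 and 453 (log2FC 1.48, limma adjusted p = 0.0299). Slc9a9, a sodium-proton exchanger of endosomes, rose from 1869 and 1688 to 5613, 4867 and 3953 in CD4 cells (log2FC 1.42, limma adjusted p = 8.54e-04) and from 1728 and 1713 to 3723, 4052 and 2854 in CD8 cells (log2FC 1.03, limma adjusted p = 0.00885). Slc12a7 fell in both. It went from 7293 and 6441 to 1130, 2280 and 2677 in CD4 cells (log2FC -1.85, limma adjusted p = 0.0288), and from 11561 and 12390 to 1102, 1452 and 3552 in CD8 cells (log2FC -2.74, SE 0.50, limma adjusted p = 0.00501).

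Metal and heme carriers that passed were all higher after DTx, 5 of 25 in CD4 and 2 in CD8 cells. Slc31a1 was at 1361, 850 and 1027 in CD4 DTx (log2FC 0.88, limma adjusted p = 0.0282) and at 1286, 972 and 1190 in CD8 DTx against 537 and 524 in CD8 PBS (log2FC 1.10, limma adjusted p = 0.0115). The heme carrier Slc48a1, named after its values were seen, had log2FC values of 0.65 in CD4 (limma, adjusted p = 0.0492) and 0.95 in CD8 cells (limma, adjusted p = 0.00978). The zinc importers Slc39a4 and Slc39a6 passed in CD4 cells. Slc39a4 was at 781, 1600 and 1441 in CD4 DTx (log2FC 2.50, limma adjusted p = 0.00213), and in CD8 DTx at 876, 973 and 937 against 566 and 227, short of the threshold. Slc39a6 was at 1996, 2941 and 2335 in CD4 DTx against 1121 and 1219 (log2FC 1.03, limma adjusted p = 0.0157). Slc41a2, a magnesium carrier, was at 180, 154 and 266 in CD4 DTx against 19.1 and 0 (log2FC 5.45, limma adjusted p = 0.0356).

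Mitochondrial carriers that passed were also all higher, 5 of 37 in CD4 cells and 2 in CD8 cells, with class medians of 0.00 and 0.01. Slc25a24, a calcium-dependent ATP-Mg/phosphate carrier, rose from 836 and 622 to 1957, 2346 and 2029 in CD4 cells (log2FC 1.54, limma adjusted p = 0.0168), and from 696 and 267 to 1695, 2858 and 1459 in CD8 cells (log2FC 2.15, limma adjusted p = 0.00392). Slc25a20, the carnitine-acylcarnitine carrier of fatty acid oxidation, is named after its values were seen. It was at 1686, 1609 and 1596 in CD4 DTx against 872 and 806 (log2FC 0.96, SE 0.17, limma adjusted p = 0.00255), and at 1685, 1640 and 1569 in CD8 DTx against 790 and 785 (log2FC 1.05, SE 0.17, limma adjusted p = 0.00247), with little spread in any group. Slc25a13 passed in CD4 cells (log2FC 2.06, limma adjusted p = 0.00721). The ADP/ATP carrier Slc25a4 rose from 2715 and 1861 to 6087, 6604 and 5647 in CD4 cells (log2FC 1.44, SE 0.22, limma adjusted p = 0.00102), and was at 7686, 7481 and 5632 in CD8 DTx against 4962 and 4936. Neither the citrate carrier Slc25a1 nor Slc25a5 or Slc25a10 passed.

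In the Golgi class 4 of 21 members were higher in CD4 cells and 3 in CD8 cells, and none was lower. Slc35b1, known to exchange ATP and ADP across the endoplasmic reticulum, rose from 1219 and 1000 to 2739, 2414 and 2021 in CD4 cells (log2FC 1.10, limma adjusted p = 0.0111) and from 1181 and 1116 to 3034, 3122 and 1910 in CD8 cells (log2FC 1.19, limma adjusted p = 0.00955). Slc35b2, which brings the sulfate donor PAPS into the Golgi and is named after its values were seen, had log2FC values of 1.01 and 0.72 (limma, adjusted p = 0.00491 and 0.0346). Slc35a1 and the GDP-fucose carrier Slc35c1 did not pass in either.

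Vitamin, choline and lipid carriers gave 1 higher and 2 lower members in each cell type, the same genes. Slc52a3 rose from 127 and 100 to 350, 1153 and 772 in CD4 cells (log2FC 2.57, limma adjusted p = 0.00317) and from 228 and 112 to 1049, 869 and 973 in CD8 cells (log2FC 2.58, limma adjusted p = 0.00494). The choline transporter-like genes Slc44a1 and Slc44a2 fell. Slc44a1 went from 921 and 1175 to 374, 227 and 200 in CD4 cells (log2FC -2.01, limma adjusted p = 0.0154), and from 731 and 781 to 139, 80.9 and 261 in CD8 cells (log2FC -2.39, limma adjusted p = 0.00789). Slc44a2 went from 21923 and 23494 to 15844, 13713 and 12711 in CD4 cells (log2FC -0.69, limma adjusted p = 0.0301), and from 20133 and 22372 to 12207, 12255 and 13858 in CD8 cells (log2FC -0.73, limma adjusted p = 0.0273). Slc44a1 did not pass between Treg PBS and CD4 PBS. In Treg PBS it was at 592, 854 and 1254, overlapping CD4 PBS.

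In the remaining classes, Slc29a4 rose from 0 in both CD4 PBS libraries to 150, 225 and 146, at least 42.3-fold with a limma adjusted p = 1.52e-04, and from 25.5 and 4 to 47.1, 119 and 86.1 in CD8 cells (log2FC 2.79, limma adjusted p = 0.0365). The purine nucleoside carrier Slc28a2 fell in CD4 cells, from 5921 and 6213 to 3773, 3036 and 3561 (log2FC -0.82, limma adjusted p = 0.0248), and so did the urea carrier Slc14a1 (log2FC -1.20, limma adjusted p = 0.0488). Slc22a17, known as a receptor of the iron-binding protein lipocalin 2, fell from 42.4 and 81.9 to 0, 13.3 and 0 in CD4 cells (log2FC -4.63, limma adjusted p = 0.0228) and from 94.8 and 73.3 to 0.924, 3.85 and 0 in CD8 cells (log2FC -5.32, limma adjusted p = 0.0141). Slc17a9 fell in CD8 cells, from 1983 and 2273 to 568, 539 and 705 (log2FC -1.82, SE 0.29, limma adjusted p = 0.00260).

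Transcripts of dividing cells moved with the same groups. The sum of 5 of 5 listed proliferation markers was 2237 and 3027 normalized reads in CD4 PBS, with 6263 to 10024 after DTx, 3294 and 6219 in CD8 PBS and 13712 to 27830 in CD8 DTx, and 14203 to 32056 in Treg PBS. Cd8a was at 103, 711 and 1302 in CD4 DTx. The summed level of 5 of 7 erythroid markers was 948 and 6643 in CD4 PBS, with 0, 1176 and 0 after DTx, and that of the 8 myeloid markers was 682 and 2155 in CD8 PBS and 1842 to 3168 in CD8 DTx. Of the NK markers, the sum of 2 of 2 was 243 and 3069 in CD8 PBS and 309 to 5111 in CD8 DTx. The sum of 4 of 7 melanocyte markers was 727 to 1197 in Treg PBS, it was 435 and 448 in CD4 cells with PBS against 89 to 170 with DTx, and in CD8 cells it was 171 and 629 with PBS and 60.7 to 125 with DTx. The sum of 3 of 4 B cell markers was 40.6 to 262 in Treg PBS, it was 110 and 194 in CD4 cells with PBS against 3.74 to 50 with DTx, and in CD8 cells it was 48 and 128 with PBS and 0 to 39.7 with DTx. The part of these transcripts in the carrier differences was not tested.

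CD4 DTx and CD8 DTx were each also compared with Treg PBS, to ask which carriers still differed from Treg cells after ablation. CD4 DTx differed in 19 members, 8 higher and 11 lower (10%, where 7.91% of all genes passed, 3.36% higher and 4.55% lower), and CD8 DTx in 22, 13 higher and 9 lower (11.6%, where 8.60% of all genes passed, 3.88% higher and 4.71% lower). The CD4 count was 8 without Treg PBS replicate 1, 9 without Treg PBS replicate 2, 12 without Treg PBS replicate 3, 10 without CD4 DTx replicate 2 and 8 without CD4 DTx replicate 3. The CD8 count was 14 without Treg PBS replicate 1 and 14 without Treg PBS replicate 2. With libraries scaled to the same total the CD8 split was 7 higher and 10 lower, and with TMM factors the CD4 split was 11 higher and 10 lower. These comparisons share the Treg PBS libraries with each other and with the comparison of Treg PBS and CD4 PBS, so their values are given side by side and overlaps were not counted.

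The members that were higher than in Treg PBS included several anion carriers. Slc26a11 was at 1319, 1183 and 1802 normalized reads in CD4 DTx against 299, 105 and 417 in Treg PBS (log2FC 2.58, SE 0.47, limma adjusted p = 0.00580). Slc26a10 was higher in CD4 DTx (log2FC 2.36, limma adjusted p = 0.0233) and in CD8 DTx (log2FC 2.49, limma adjusted p = 0.0156). Slc20a1 was at 3542, 2076 and 3132 in CD4 DTx and at 2926, 2132 and 4096 in CD8 DTx, all above the Treg PBS libraries (log2FC values 1.38 and 1.43, limma adjusted p = 0.00650 and 0.00412). Slc37a1 was also higher in each (log2FC values 1.42 and 1.38, limma adjusted p = 0.0296 and 0.0300). Slc9a9 was higher as well (log2FC values 1.37 and 0.93, limma adjusted p = 0.00102 and 0.00818). The zinc and manganese importer Slc39a8 was at 100, 405 and 352 in CD4 DTx against 27.1, 106 and 10.6 in Treg PBS, where 1 library of each group crossed over (log2FC 2.90, limma adjusted p = 0.0368).

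Other members were lower than in Treg PBS. Slc35f5 was at 0, 25.6 and 5.27 normalized reads in CD4 DTx against 403, 211 and 263 in Treg PBS (log2FC -5.68, limma adjusted p = 0.00787). Slc22a17 was at 79.6, 55.2 and 98.9 in Treg PBS and lower in CD4 DTx (log2FC -4.98, limma adjusted p = 0.0136) and in CD8 DTx (log2FC -5.19, limma adjusted p = 0.00899). Slc7a4 was at 84.7, 18.4 and 15.3 in Treg PBS and at 0 in CD4 DTx, at least 9.99-fold lower with a limma adjusted p = 0.0260. Slc12a8 and Slc9b2 were lower in CD4 DTx (log2FC values -3.45 and -3.14, limma adjusted p = 0.0405 and 0.0194). Slc9b2 met the level rule through Treg PBS alone, so the direction of its difference, here and in CD8 DTx, was set by that rule. Slc35f5, Slc22a17 and Slc7a4 reached the level in no DTx library, so the rule favoured the direction of their differences. Slc37a2 was at 155, 146 and 228 in CD4 DTx against 660, 593 and 1303 (log2FC -2.20, limma adjusted p = 0.0204). In CD8 DTx, Slc11a1 was at 11.1, 12.5 and 0 against 400, 334 and 346 (log2FC -6.04, SE 1.18, limma adjusted p = 0.00683). The other lower members in CD8 DTx included Slc15a3 (log2FC -3.61, limma adjusted p = 0.00301), Slc41a3 of the magnesium carrier family (-2.96, limma adjusted p = 0.00422), Slc9b2 (-3.34, limma adjusted p = 0.0120) and Slc44a1 (-2.57, limma adjusted p = 0.00245). The sulfate carrier Slc26a2, named after its values were seen, was lower in each DTx group, at 800, 1110 and 1085 in CD4 and 516, 926 and 1152 in CD8 cells against 2237, 3117 and 3105.

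Single carriers of fatty acids (Slc27a6 and Slc27a4) and of lactate (Slc16a1) were among those higher in CD8 DTx than in Treg PBS. Slc27a6, a fatty acid transport protein, was at 44.3, 30.8 and 133 normalized reads in CD8 DTx and at 0, 14.1 and 0 in Treg PBS (log2FC 4.55, limma adjusted p = 0.0319). Its relative Slc27a4 was at 281, 637 and 739 against 108, 159 and 265 (log2FC 1.62, limma adjusted p = 0.0371). Slc17a6, a vesicular glutamate carrier known from neurons, was at 178, 160 and 201 in CD8 DTx and at 0, 2.17 and 0 in Treg PBS. That is 2 reads in all for Treg PBS, and the ratio was 262-fold (95% exact interval for counting error 72.2 to 2171), with a limma adjusted p = 0.0416. Slc6a19, at 0 in Treg PBS, exceeded it by at least 20.3-fold (limma adjusted p = 5.08e-04). In CD4 DTx Slc17a6 was at 0, 462 and 43.5. Slc16a1 was at 2711, 3829 and 2836 in CD8 DTx against 1020, 2114 and 1772 (log2FC 0.98, limma adjusted p = 0.0350). Relatives of these carriers had lower means in CD8 DTx and did not pass. Per kilobase of exon, the lactate exporter Slc16a3 had a mean of 264 in CD8 DTx against 524 in Treg PBS. The fatty acid transport protein Slc27a1 had 101 against 216.

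**Figure D4:**
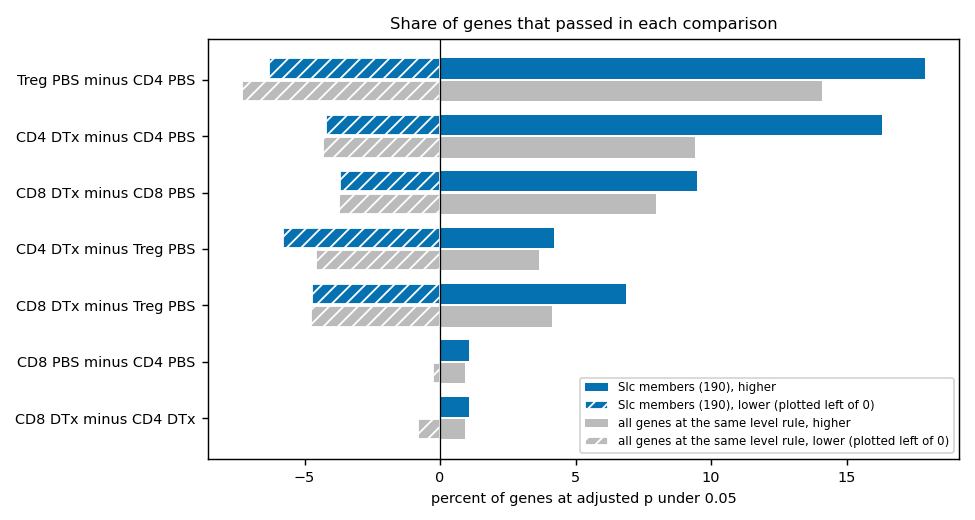
Share of the 190 members (blue) and of the 11557 genes that met the same level rule (grey) at an adjusted p under 0.05 in each comparison, with higher genes to the right of 0 and lower genes, hatched, to the left. In CD4 cells after DTx 16.3% of members and 9.41% of genes at the level were higher.

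CD8 and CD4 cells under the same treatment differed in few carriers. In PBS-treated tumors 2 of 190 members passed, where 1.08% of all genes did, 0.837% higher and 0.245% lower. Slc6a19 exceeded its CD4 PBS level by at least 751-fold in CD8 PBS (limma adjusted p = 1.80e-04), and Slc25a4 was at 4962 and 4936 normalized reads against 2715 and 1861 (log2FC 1.14, limma adjusted p = 0.0431). Slc25a4 no longer passed, leaving Slc6a19 alone, in the fits without Treg PBS replicate 2, CD4 PBS replicate 3, CD4 DTx replicate 2, CD4 DTx replicate 3, CD8 PBS replicate 2, CD8 DTx replicate 1 or CD8 DTx replicate 2. It also missed the threshold without Treg PBS replicate 1 or CD8 PBS replicate 3. After DTx 2 members passed, where 1.64% of all genes did, 0.892% higher and 0.750% lower. By its CD8 DTx mean, Slc6a19 exceeded its CD4 DTx level by at least 18.1-fold (limma adjusted p = 0.00388). Slc27a6, which had no read in CD4 DTx, did so by at least 17.6-fold, also by its mean (limma adjusted p = 0.0300). The count was 1 without CD4 DTx replicate 2, without CD4 DTx replicate 3 or without CD8 DTx replicate 2. With the replicate number as a block, 6 members passed between CD8 DTx and CD4 DTx, 3 higher and 3 lower. The additional genes included Slc14a1 (log2FC 0.96, limma adjusted p = 0.0255), Slc41a3 (-1.96, adjusted p = 0.0318) and Slc35b3 (-0.78, adjusted p = 0.0475).

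Over the 7 comparisons between groups 73 members (38.4%) passed at least once and 117 never did, beside 29.9% of all genes tested that passed at least once. Of the 140 members at the level in every library, 23.6% passed between Treg PBS and CD4 PBS, 21.4% in CD4 and 13.6% in CD8 cells after DTx. Of the 50 others it was 26.0%, 18.0% and 12%, and all of those calls were past 4-fold. From the roster of carriers known in T cells, several passed neither between Treg PBS and CD4 PBS nor between DTx and PBS in either cell type. They were the amino acid carriers Slc7a1, Slc7a6, Slc1a4 and Slc16a10, the folate carrier Slc19a1 and the iron importer Slc11a2. The zinc transporters Slc39a10 and Slc30a5, the cation-chloride cotransporter Slc12a2 and the taurine carrier Slc6a6 were the others. Of these, Slc11a2 passed as higher in both CD4 DTx and CD8 DTx than in Treg PBS. With the replicate number as a block it also passed as higher in CD8 PBS than in CD4 PBS (log2FC 1.08, limma adjusted p = 0.0121). Slc19a1 had a log2FC of -0.68 in CD4 (limma adjusted p = 0.0969) and -0.79 in CD8 cells (limma adjusted p = 0.0628).

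Genes that assist or regulate carriers were taken from a list of 30, of which 29 were tested. In CD4 cells after DTx 3 were higher and 3 lower, in CD8 cells 7 were higher and 2 lower, and in Treg PBS against CD4 PBS 7 were higher and 2 lower. Of all genes tested, 8.64% were higher and 4.08% lower in CD4 cells, and 7.4% and 3.47% in CD8 cells. In Treg PBS these shares were 13.5% and 6.91%. Whether the listed genes differ from all genes was not tested. Bsg (basigin), the chaperone that takes MCT1 and MCT4 to the cell surface, was at 8370, 6114 and 5306 normalized reads in CD4 DTx against 3354 and 2679 in CD4 PBS (log2FC 1.11, limma adjusted p = 0.0251), and had a log2FC of 0.99 in CD8 cells (limma, adjusted p = 0.0475) and 1.36 in Treg PBS (limma, adjusted p = 0.00625). Txnip, an inhibitor of glucose uptake that draws Glut1 from the surface, was at 22471, 20896 and 16929 in CD4 DTx against 42750 and 35683 (log2FC -0.97, limma adjusted p = 0.0265), and fell in CD8 cells as well (log2FC -0.90, limma adjusted p = 0.0419). Its relative Arrdc4 was higher in Treg PBS (log2FC 3.87, limma adjusted p = 0.00162). Myc, a regulator of amino acid and glucose carriers, fell in CD4 (log2FC -2.03, limma adjusted p = 0.0125) and CD8 cells (log2FC -1.81, limma adjusted p = 0.0277). Asns, asparagine synthetase, a target of the amino acid stress response that also drives carrier genes, was at 206, 592 and 346 in CD4 DTx against 6.83 and 11.9 (log2FC 5.12, limma adjusted p = 0.00337), and it rose in CD8 cells (log2FC 4.72, limma adjusted p = 0.00755).

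The zinc-binding metallothioneins Mt1 and Mt2 were at 2878, 612 and 833 and at 600, 100 and 176 normalized reads in CD8 DTx, against 142 and 25.3 and 13.4 and 0 in CD8 PBS (log2FC values 4.21 and 5.86, limma adjusted p = 0.00362 and 0.00706). Mt1 was also at 1109, 1355 and 941 in Treg PBS and at 211, 190 and 346 in CD4 DTx, against 57.4 and 78.6 in CD4 PBS. Mt2 was at 81.3, 127 and 105 in Treg PBS and at 23.4, 8.18 and 43.5 in CD4 DTx, against 15 and 5.28. The kinase Stk39, known to act on cation-chloride cotransporters, rose in CD8 cells (log2FC 1.85, limma adjusted p = 0.00329), and Trib3 did so too (log2FC 2.98, limma adjusted p = 0.0133). Stk39 was at 1734, 1791 and 1809 in CD4 DTx against 962 and 815 in CD4 PBS, short of the threshold. Nedd4l, a ubiquitin ligase that removes carriers from the membrane, fell in CD4 cells from 1052 and 1149 to 1.87, 112 and 27.7 (log2FC -5.71, limma adjusted p = 0.0173). In CD8 cells it went from 1014 and 1246 to 105, 81.9 and 155, short of the threshold. No gene of this list passed for the difference of the DTx effects. Of 27 further carriers and channels whose symbols do not begin with Slc and a digit, 20 were tested. After DTx 2 were higher and 1 lower in each cell type, and in Treg PBS 4 were higher and 1 lower. Beside these stand 8.64% higher and 4.08% lower of all genes in CD4 cells, and 7.4% and 3.47% in CD8 cells. For Treg PBS they were 13.5% and 6.91%, and a difference from these shares was not tested. The organic anion carrier Slco3a1 rose in CD4 (log2FC 0.90, limma adjusted p = 0.0114) and CD8 cells (log2FC 0.79, limma adjusted p = 0.0266). The mitochondrial serine carrier family member Sfxn2 fell in both (log2FC values -1.31 and -1.52, limma adjusted p = 0.0465 and 0.0276), and the lysosomal cationic amino acid exporter Pqlc2 rose in CD8 cells (log2FC 1.56, limma adjusted p = 0.00707).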

How the data were processed

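RNA of T cells sorted by flow cytometry from B16-F10 tumors was sequenced in 13 libraries. Per the labels and methods, reads were trimmed with cutadapt, aligned with hisat2 to the mouse build NCBIM37 (mm9) and counted when uniquely mapped. The read counter, strand setting and gene filter are not given in the sources used here. The deposited values, which the authors call FPM and describe as normalized to library size and intergenic reads, are treated here as a signal per gene. Their sums per library are not those of values per fixed number of reads. Each is a whole multiple of a step particular to its library (100% within 0.01 read), so they were read as counts divided by a size factor, an inference from the values, and depth was computed from it, and a floor of 3 reads was used for values at 0.

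The main test was limma 3.58.1 (R 4.3.3, trend) on log2(value + 1), with a mean for each of the 5 groups over all 13 libraries, on the 12667 genes that reached 10 normalized reads in 2 or more libraries, two-sided, with Benjamini-Hochberg adjustment over those genes. Fold changes on this scale understate those of low genes. edgeR 4.0.16 and DESeq2 1.42.0 on the recovered reads, other normalizations, pseudocounts, filters, thresholds and leaving out each library were alternatives. The scripts were checked on simulated counts. Members, gene lists and classes were chosen with earlier results of these data known. The text names members that passed with the largest fold changes and a fixed roster of carriers known from T cells, and says where a gene was chosen otherwise. The study describes the replicates as biological and isolated on separate days, and they differed beyond counting noise (chi-square per degree of freedom 43.5 to 244). Replicate numbers paired CD8 DTx with CD4 DTx, by the correlation of their deviations from the group means (r = 0.36, 0.21 and 0.59). For CD8 PBS with CD4 PBS r was 0.19, and for Treg PBS with CD4 PBS it was 0.10. CD4 PBS has 2 libraries, whose deviations mirror each other, so these values cannot show a match by number. In the other comparisons not every library correlated best with its own number. Some same-numbered libraries did, such as replicate 1 of CD4 DTx and Treg PBS (r = 0.25) and replicate 3 of CD8 DTx and Treg PBS (r = 0.30). Marker sums, partner genes and promoters (RefSeq, GRCm38.p6) are descriptions, and exon lengths came from GENCODE vM21. Some members are counted but not reported here by name.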

Additional observations from a re-analysis of the deposited data

How the results depend on the processing

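Comparisons are given in the order Treg PBS against CD4 PBS (46 members passed), CD4 DTx against CD4 PBS (39), CD8 DTx against CD8 PBS (25), CD4 DTx against Treg PBS (19), CD8 DTx against Treg PBS (22), CD8 PBS against CD4 PBS (2), CD8 DTx against CD4 DTx (2) and the difference of the DTx effects (0). All 155 member results that passed kept their direction under the 29 settings, and 14 passed under every one, among them Slc15a3 in the comparisons of Treg PBS, CD4 DTx and CD8 DTx with PBS Tconv cells. Not all of these settings could reverse a direction. Stricter thresholds, other filters, no variance trend and only the groups compared in the fit leave the fold change unchanged. So does leaving out a library of a group not compared. Past 4-fold as well, the first 6 counts were 21, 16, 11, 9, 10 and 1. At an adjusted p under 0.01 the first 7 were 23, 19, 14, 5, 11, 1 and 1. Without replicate 3 of every group, the male libraries and a setting chosen after seeing the data, they were 13, 7, 2, 1, 2, 0 and 0, with fewer libraries. With only the groups compared in the fit, CD4 DTx against CD4 PBS gave 23, CD8 DTx against CD8 PBS 4, CD4 DTx against Treg PBS 11 and CD8 PBS against CD4 PBS 1. edgeR gave 12 for CD4 DTx against Treg PBS and 1 for CD8 DTx against CD4 DTx. DESeq2 gave 31 for CD4 DTx against Treg PBS, 6 for CD8 PBS against CD4 PBS, 4 for CD8 DTx against CD4 DTx and 1 for the difference of effects. Without a variance trend CD8 PBS against CD4 PBS gave 1 and the difference of effects 1. Members taken by a mean of 50 gave 1 for CD8 DTx against CD4 DTx. The cause of these shifts was not tested. Leaving out each library in turn gave 22 to 56, 12 to 40, 4 to 33, 8 to 22, 14 to 27, 1 to 3, 1 to 2 and 0. Where that left a single library in a group, it was assumed to vary like the others.

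With the replicate number as a block the counts were 60, 42, 33, 32, 32, 5, 6 and 0, so the block moved those of CD4 DTx against Treg PBS, CD8 PBS against CD4 PBS and the paired CD8 DTx against CD4 DTx by over 1.5 times. For CD8 PBS and CD4 PBS, with 2 libraries each, r was 0.19, and for Treg PBS and CD4 PBS it was 0.10. The deviations of 2 libraries mirror each other, so these values cannot show a match by number. In the other comparisons not every library correlated best with its own number. With sex as a covariate, also chosen after seeing the data, they were 49, 40, 30, 24, 23, 2, 2 and 0. Scaling to equal totals shifted the median of all genes by -0.09, -0.18 and -0.23 in the first 3 comparisons and gave splits of 26 higher and 14 lower, 27 and 8, and 12 and 11. The number of PBS Tconv libraries, 2 per cell type, limits the precision of every comparison with them.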

Other observations

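Slc rows under the level rule, 25 in all, were not members. Slc7a11, the cystine carrier, was between 0.847 and 59.5 normalized reads over the 13 libraries, and Slc40a1, the iron exporter, was at 0 in 10 of them and reached 30.5 in CD8 DTx.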
